A study of Mus musculus with 2 samples.

Results

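The spliceosome core genes described here are the 45 protein-coding genes of GENCODE vM1 (mouse build mm9) whose symbols start with Snrp, Sf3a, Sf3b, Lsm and a digit, or Prpf, of 22380 protein-coding genes in all. Their contacts were read from RNA polymerase II (RNA Pol II) ChIA-PET, an assay that pulls down chromatin with an antibody to RNA Pol II (clone 8WG16), ligates DNA ends that lie close together and sequences the joined ends. Each paired-end tag (PET) with its ends in 2 different peaks counts as 1 contact, the peaks at its ends are its anchors, and a row of the data is a pair of anchors with its number of PETs. A gene was given every row, within a chromosome or between chromosomes, with an anchor within 1 kb of the gene, and each row was counted once.

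The cells were mouse embryonic stem cells of genotype CreERT2; Ronin flox/flox, derived from blastocysts and grown in serum and LIF on gelatin. Ronin knockout cells (Ronin KO) received tamoxifen for 4 days, which activates the Cre recombinase that deletes Ronin (Thap11). Control cells of the same genotype received ethanol for 4 days, so the floxed alleles and the inducible Cre are common to both groups, and tamoxifen exposure and loss of Ronin cannot be told apart. Each group is 1 library, merged by the authors from 2 experiments of 1 derived line, so there is no replicate check: the tests below compare these 2 libraries, and their intervals cover counting error only.

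The spliceosome removes introns from RNA Pol II transcripts. Sm proteins form a ring around the U1, U2, U4 and U5 small nuclear RNAs, and the related LSm proteins form a ring on U6. The U1 particle recognises the start of an intron and the U2 particle, with the SF3a and SF3b complexes, its branch site. Most Prpf proteins then join the U4, U5 and U6 particles to it or build the catalytic centre. These genes are expressed in nearly all cells. Ronin is a zinc finger protein of the THAP family that binds a long motif near start sites of many housekeeping genes.

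The Ronin KO library held 44328 pairs of anchors with 65276 PETs, and the control library 128267 pairs with 156097 PETs. The PETs in pairs of anchors, called all PETs below, were therefore 41.8% of control in Ronin KO (95% interval 41.4% to 42.2%). Pairs of over 100 PETs held 23.6% of these PETs in Ronin KO and 12.6% in control, and without them the ratio was 36.5%. The study's own counts of PETs over 5 kb, 135167 in Ronin KO and 169217 in control, gave 79.9%. Scaling to the 41.8% takes out any change shared by all genes. Thap11 itself had 46 PETs in Ronin KO and 109 in control, a contact count that does not check the deletion. Of a list of 12 embryonic stem cell marker genes, 11 were matched by symbol and all of these had PETs, with a sum of 273 in Ronin KO and 836 in control. Against the 41.8% of all PETs, 6 of the 11 were below and 5 above. Zfp42 alone was called at an adjusted p of 0.05, and it was lower in Ronin KO. It had 37 PETs in Ronin KO and 194 in control (adjusted p = 0.000158, exact binomial test over all genes). Of all genes with at least 10 PETs, 61.8% were below and 3.63% were called lower. Among 6 fibroblast markers Fn1 alone had PETs (54 in Ronin KO and 148 in control), and Col1a1, Col1a2, Col3a1, Thy1 and S100a4 were at 0 in both libraries. The primitive endoderm markers together had 6 PETs in Ronin KO and 7 in control.

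Of the core genes 3 held CTGGGANNTGTAGT, a loosened form of the Ronin-binding motif with its 2 middle bases free, within 1 kb of a start site on either strand. The study's own consensus limits the middle bases to a purine and to A or T and adds a pyrimidine at the end, and of the 3 copies only that of Sf3b2 also matched it. In each case it lay upstream of the start site and within the promoter window of 250 bases before to 50 bases after it. The bases before each start site are printed from mm9 along the gene, 5′ to 3′, with the match in capitals, because these are the only core gene promoters that hold the loosened form.
Lsm10: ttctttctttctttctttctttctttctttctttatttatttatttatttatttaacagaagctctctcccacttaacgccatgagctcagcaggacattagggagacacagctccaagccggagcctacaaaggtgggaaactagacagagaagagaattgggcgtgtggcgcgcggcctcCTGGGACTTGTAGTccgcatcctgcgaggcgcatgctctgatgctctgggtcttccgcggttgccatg
Prpf4: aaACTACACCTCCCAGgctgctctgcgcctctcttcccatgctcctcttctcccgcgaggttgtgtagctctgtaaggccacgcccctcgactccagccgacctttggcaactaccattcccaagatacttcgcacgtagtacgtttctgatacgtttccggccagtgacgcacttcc
Sf3b2: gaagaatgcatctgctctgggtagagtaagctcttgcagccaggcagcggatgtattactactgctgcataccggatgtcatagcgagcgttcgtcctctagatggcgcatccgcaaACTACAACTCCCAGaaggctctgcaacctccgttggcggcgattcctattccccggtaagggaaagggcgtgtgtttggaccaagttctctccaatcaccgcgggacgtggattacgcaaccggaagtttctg

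These stretches are chr4:125773617-125773866 on the + strand for Lsm10, chr4:62069653-62069830 on the + strand for Prpf4 and chr19:5295456-5295705 on the - strand for Sf3b2. The first base of the motif lay at -68 from the start site of Lsm10, in gene orientation. It lay at -176 at Prpf4 and at -133 at Sf3b2, on the opposite strand in both. The Prpf4 copy falls within the first exon of Cdc26, a neighbouring gene transcribed the other way. In the window of 300 bases the loosened form was present at 6.67% of core genes (3 of 45) and at 1.68% of all protein-coding genes (376 of 22372 on the chromosomes of the reference). Over genes with at least 10 PETs the shares were 7.32% and 2.79%. The full consensus was present at 1 of 45 core genes (2.22%) and at 1.08% of all protein-coding genes. No further test was made of these shares. A match is a description of the letters and not a bound site.

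All 45 core genes had PETs in both libraries. Counting each row once, they had 797 PETs in 703 rows in Ronin KO and 2159 PETs in 1972 rows in control. That is 36.9% of control (95% interval 34.0% to 40.1%), beside 41.8% for all PETs. It still holds 1 pair at Lsm4 with 74 PETs in Ronin KO and 147 in control. Without that pair the core genes were at 35.9% (95% interval 33.0% to 39.1%). All PETs without the pairs of over 100 PETs were at 36.5%. That cut was made in each library on its own, so it drops the Lsm4 pair from the control total but not from that of Ronin KO. Partner peaks numbered 654 in Ronin KO and 1637 in control (40.0%), and 98.3% of rows in Ronin KO and 98.4% in control rested on 1 PET. The core genes took 1.22% of all PETs of the library in Ronin KO and 1.38% in control.

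With at least 10 PETs over both libraries, 41 core genes could be tested, beside 8973 genes in all. Each of the 41 had fewer PETs in Ronin KO than in control before scaling, as did 94.8% of all genes tested. The 95% interval of the ratio lay wholly below 100% for 33 of them, beside 67% of all genes tested. Set against the 41.8% of all PETs, 29 of the 41 were below and 12 above, beside 61.8% of all genes tested that were below. The log2 ratio is scaled to the PETs of both libraries and uses a pseudocount of 1, which moves genes of few PETs toward equal PETs in both libraries. By it 24 of the 41 were lower in Ronin KO and 17 higher, beside 57.6% of all genes tested that were lower, and Lsm6, Prpf19, Sf3a3, Snrpb2 and Snrpc are the genes that change side. The median log2 ratio was -0.17 for the core genes (range -1.61 to 0.77) and -0.12 for all genes tested. With totals that leave out the pairs of over 100 PETs, 18 of the 41 had a log2 ratio below 0, beside 4080 of the 8973 genes tested. Without the pseudocount 22 of the 41 were below, beside 50.9% of all genes tested. The medians with it became 0.024 for the core genes and 0.074 for all genes tested. The median of the core genes minus that of all genes was -0.05. A change of totals cannot move this difference, but a change of rows does. It was 0.021 with interchromosomal rows alone, 0.0069 with rows at an adjusted p-value under 0.05 and -0.23 with rows of at least 2 PETs, which leave 4 core genes.

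**Figure D1:**
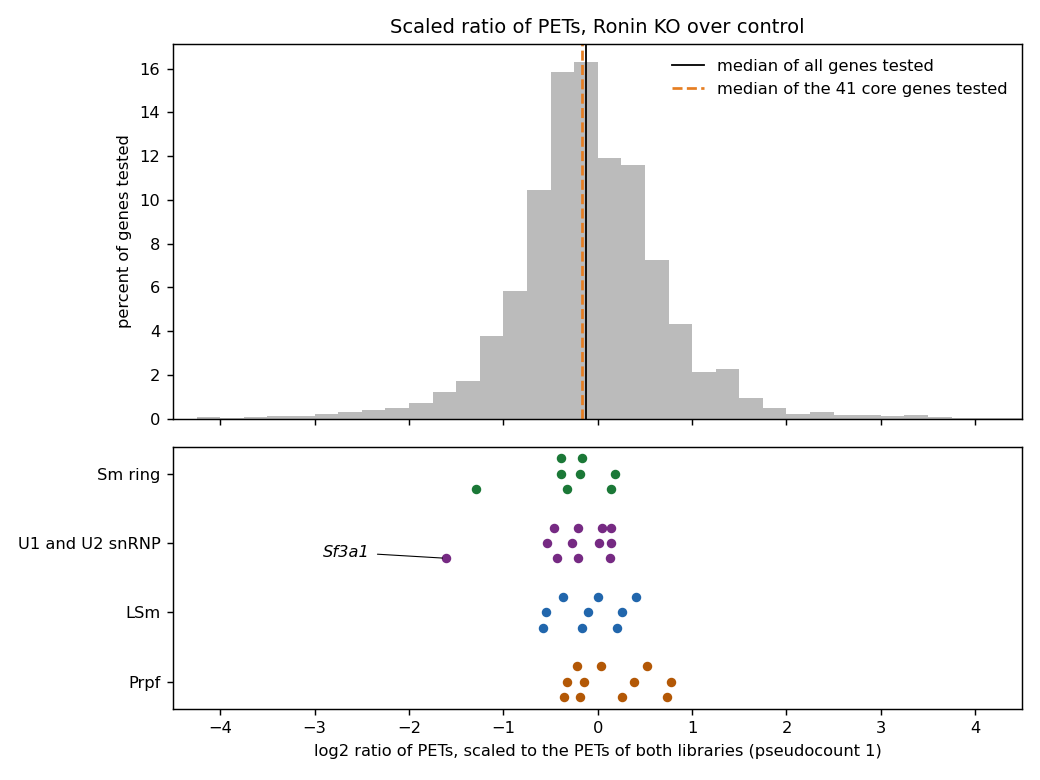
Upper panel: percent of the 8973 genes tested by log2 ratio of PETs, Ronin KO over control, scaled to the PETs of both libraries; 26 genes lie beyond the axis. Lower panel: 40 of the 41 core genes tested as points by class. The 2 medians, -0.17 for core genes and -0.12 for all genes tested, nearly coincide, and Sf3a1 lies farthest to the left at -1.61.

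An exact binomial test set the Ronin KO share of each gene's PETs against the Ronin KO share of all PETs, with Benjamini-Hochberg adjustment over the 8973 genes. One core gene passed at an adjusted p of 0.05, Sf3a1, which was lower in Ronin KO. Of all genes tested 3.63% were called lower and 2.85% higher, and no core gene was called higher. At an unadjusted p under 0.05, 4 core genes were lower, beside 11.6% of all genes tested, and 0 higher, beside 5.73%. At least 2-fold lower after scaling were 2 core genes, Sf3a1 and Snrpd1, beside 9.18% of all genes tested. At least 2-fold higher were 0 core genes, beside 7.31%. These shares are near or below those of all genes, so the counts single out no more core genes than genes in general.

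**Figure D2:**
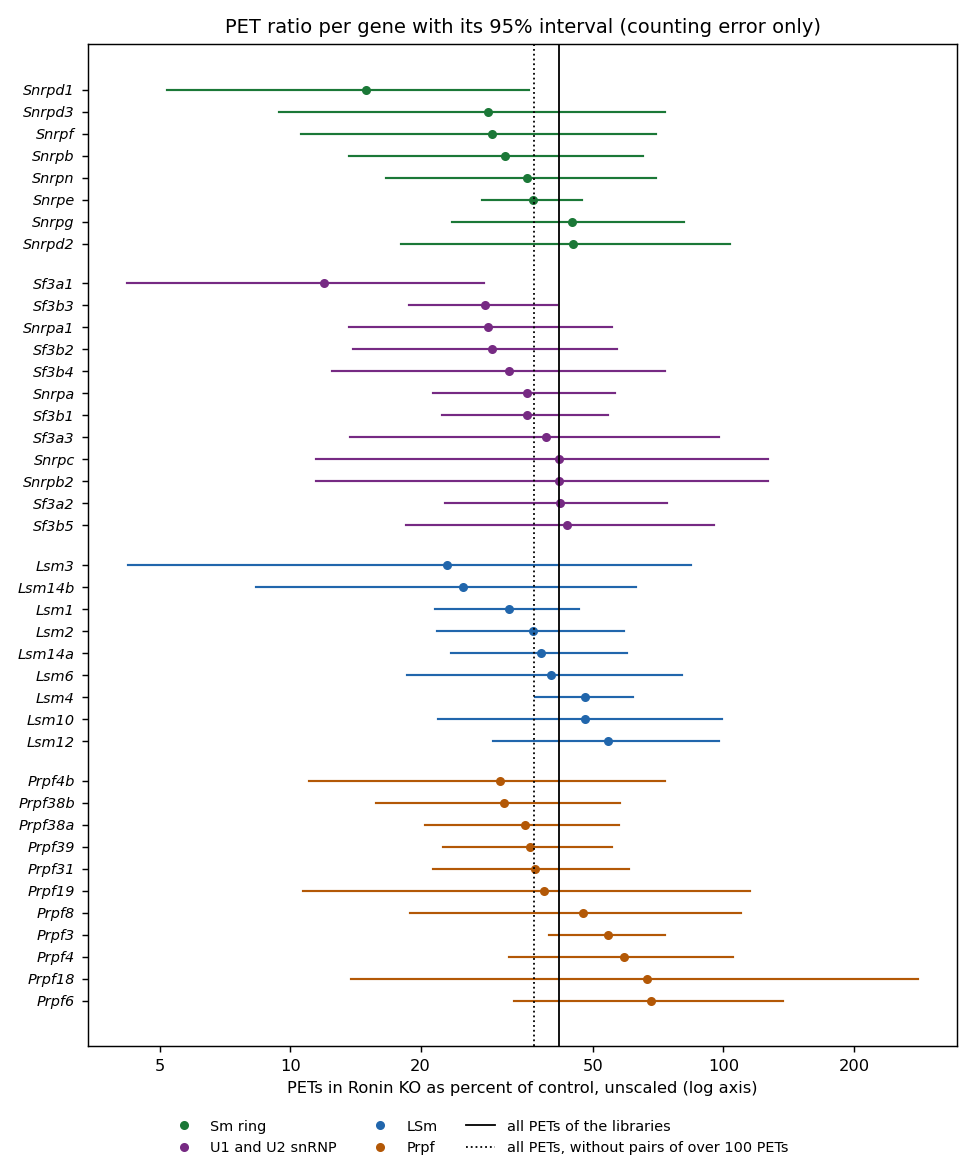
PETs in Ronin KO as percent of control for 40 of the 41 core genes tested, unscaled, on a log axis, with the exact 95% interval of counting error; colours give the class. The solid line is the ratio of all PETs (41.8%) and the dotted line that without pairs of over 100 PETs (36.5%). Of the 40 genes drawn, the intervals of 37 span the solid line, and those of Sf3a1, Sf3b3 and Snrpd1 end below it.

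The Sm proteins form the ring shared by U1, U2, U4 and U5 particles. The 8 genes of this class had 147 PETs in Ronin KO and 429 in control (34.3%, 95% interval 28.2% to 41.4%). Their median log2 ratio was -0.26, 6 were below the ratio of all PETs and 2 above, and none was called.

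Snrpe, which encodes the ring subunit SmE, had the most PETs of any core gene in control. It had 80 PETs in Ronin KO and 220 in control (36.4%, 95% interval 27.8% to 47.2%), and its log2 ratio of -0.19 is within counting error of no difference from the library ratio (exact binomial test, p = 0.311). These PETs linked it to 79 partner peaks in Ronin KO and 212 in control, and 5 of the PETs in Ronin KO and 21 in control were intrachromosomal. Snrpe (chr1:135500448-135506868) lies in an anchor 90.7 kb wide in Ronin KO and 90.1 kb wide in control that also covers Lax1 and Zc3h11a. The PETs of these 3 genes cannot be separated.

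Snrpd1, the gene of the SmD1 subunit, had 6 PETs in Ronin KO and 40 in control, 15% of control (95% interval 5.20% to 35.6%). Its log2 ratio of -1.29 was the lowest of the Sm genes, and the adjusted p was 0.136 (exact binomial test over all genes). Every PET of Snrpd1 was interchromosomal, with 6 partners in Ronin KO and 40 in control. No other protein-coding gene shares its anchor, which was 20.7 kb wide in Ronin KO and 20.6 kb in control. The peak was thus nearly as wide in Ronin KO as in control.

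The highest scaled ratio of the class with at least 20 PETs belonged to Snrpd2, the SmD2 gene, at 0.19 on the log2 scale. It had 9 PETs with 9 partners in Ronin KO and 20 PETs with 20 partners in control, of which 2 in Ronin KO and 3 in control were intrachromosomal. Snrpg (SmG) had 17 PETs in Ronin KO and 38 in control. These 2 were the only Sm genes above the library ratio.

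The other 4 Sm genes were below the library ratio, each within counting error. Snrpn, an imprinted gene whose product SmN replaces SmB mainly in the brain, had 12 PETs in Ronin KO and 34 in control. Snrpb, which encodes SmB, had 10 in Ronin KO and 32 in control. Snrpf (SmF) had 7 in Ronin KO and 24 in control. SmD3 is the remaining subunit of the ring. Its gene, Snrpd3, had 6 PETs in Ronin KO and 21 in control.

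**Figure D3:**
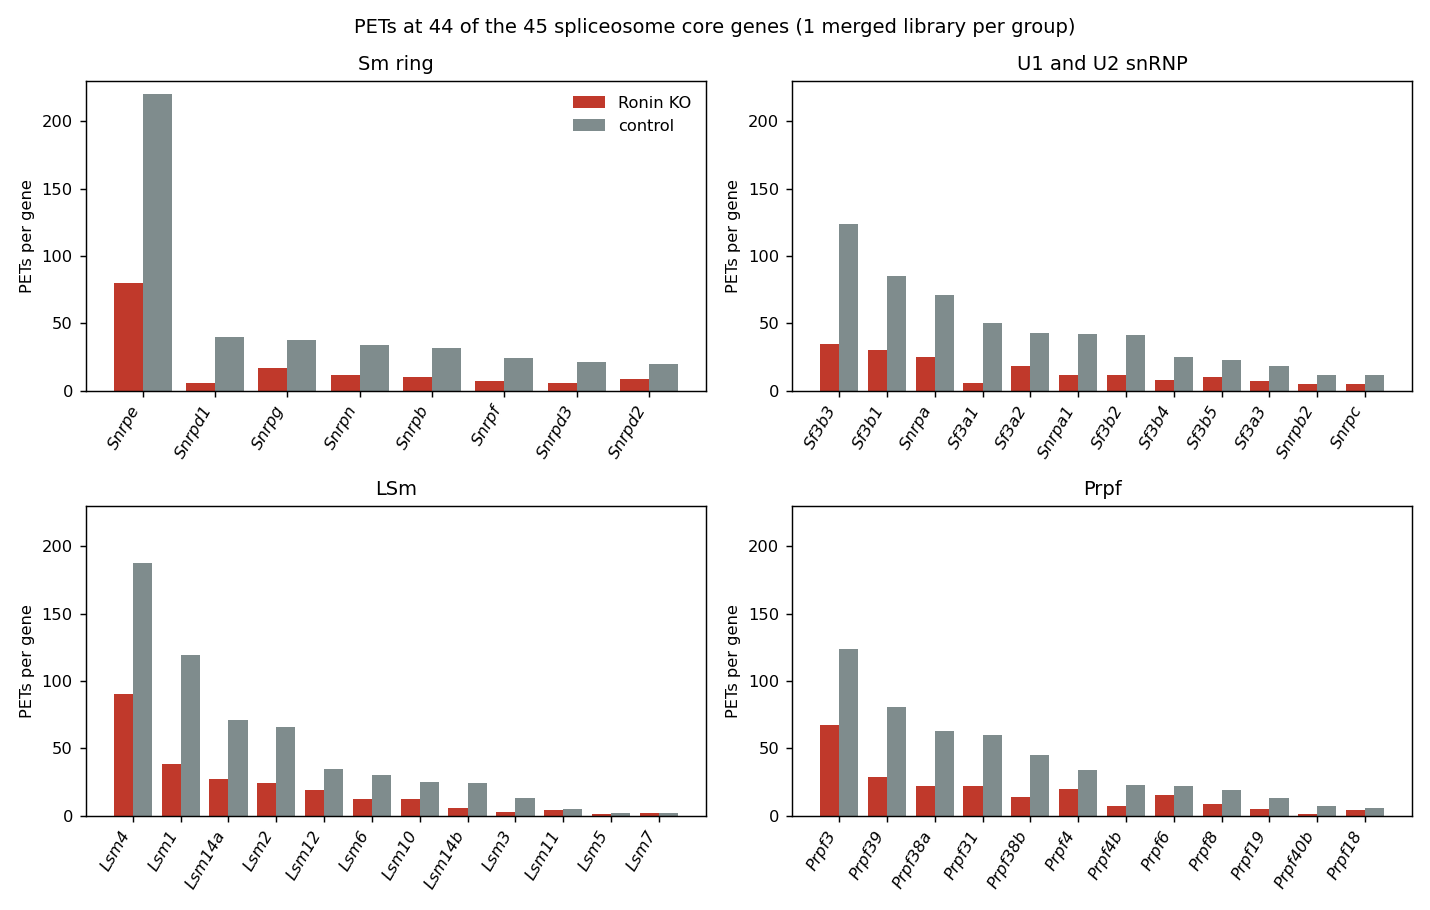
PETs per gene (vertical axis, from 0) at 44 of the 45 core genes in 4 classes, Ronin KO bars in red and control bars in grey, 1 merged library each. Control bars are taller at every gene drawn except Lsm7, which had 2 PETs in both. In control, Snrpe and Lsm4 stand above the rest.

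Proteins of the U1 and U2 particles, including the SF3a and SF3b complexes, are encoded by 12 core genes. They had 173 PETs in Ronin KO and 544 in control, the lowest ratio of the 4 classes (31.8%, 95% interval 26.6% to 37.8%). Of these, 10 were below the ratio of all PETs and 2 above, with a median log2 ratio of -0.21. By the log2 ratio with its pseudocount 7 were lower and 5 higher. The intervals of the 4 classes overlap each other.

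Sf3a1 (chr11:4060353-4082544), the largest subunit of SF3a, was the one core gene called. It had 6 PETs in Ronin KO and 50 in control, 12% of control (95% interval 4.20% to 28.0%). The log2 ratio was -1.61 and the adjusted p 0.0222 (exact binomial test over all genes). The call depended on the totals and rows used. By the same test the adjusted p was 0.0875 when pairs of over 100 PETs were left out of the totals, 0.114 with the number of pairs as totals and 9.0e-07 with the study's PETs over 5 kb as totals. With interchromosomal rows alone (6 PETs in Ronin KO and 43 in control) it was 0.133.

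Every row at Sf3a1 rested on 1 PET. The 6 partners in Ronin KO lay on 5 chromosomes, at Kif2c, Lnx1, Prmt1 and its neighbours, Cc2d1a, Mlf1ip and a peak outside protein-coding genes. The 50 partners in control lay on 18 chromosomes and included Sf3b1 and, on the same chromosome, Zmat5, which encodes a protein of the minor spliceosome. Sf3a1 had 0 intrachromosomal PETs in Ronin KO, a count that allows up to 3, and 7 in control. Its anchor was 31.2 kb wide in Ronin KO and 34.0 kb in control. Neighbours Ccdc157 and Tbc1d10a share that anchor, so the difference belongs to the whole stretch and not to Sf3a1 alone.

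Sf3b3 encodes a scaffold subunit of SF3b and had the most PETs of this class. It had 35 PETs with 35 partners in Ronin KO and 124 PETs with 122 partners in control, of which 5 in Ronin KO and 11 in control were intrachromosomal. Its ratio was 28.2% (95% interval 18.8% to 41.4%), with a log2 ratio of -0.54 and an adjusted p of 0.270 (exact binomial test over all genes). Sf3b1 encodes the subunit that cradles the branch site. That gene had 30 PETs in Ronin KO and 85 in control. Snrpa, whose protein binds a stem loop of U1, had 25 in Ronin KO and 71 in control. All 3 were below the library ratio.

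The other SF3a subunits did not share the low ratio of Sf3a1. Sf3a2 had 18 PETs in Ronin KO and 43 in control, a log2 ratio of 0.05. Sf3a3 had 7 PETs in Ronin KO and 18 in control, 38.9% of control, and a log2 ratio of 0.01 with the pseudocount. The difference between Sf3a1 and these genes was not tested. Within SF3b, Sf3b2 had 12 PETs in Ronin KO and 41 in control. Sf3b4 had 8 in Ronin KO and 25 in control. Sf3b5, a small SF3b subunit, had the highest ratio of the class among genes with at least 20 PETs (log2 0.13). It had 10 PETs with 10 partners in Ronin KO and 23 PETs with 23 partners in control, and 1 in Ronin KO and 2 in control were intrachromosomal.

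The remaining genes of the class encode U1 and U2 proteins. Snrpa1, whose protein binds U2 with that of Snrpb2, had 12 PETs in Ronin KO and 42 in control. Snrpb2 had 5 in Ronin KO and 12 in control. Snrpc encodes a protein that helps U1 hold the start of the intron. It also had 5 PETs in Ronin KO and 12 in control. One pair, to a peak on chr11 outside protein-coding genes, gave 4 of the 5 in Ronin KO and 2 of the 12 in control.

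LSm proteins bind U6 in the nucleus or trimmed mRNAs in the cytoplasm, and Lsm10 and Lsm11 belong to the U7 particle that cuts histone mRNAs. The 12 LSm genes had 238 PETs in Ronin KO and 580 in control (41.0%, 95% interval 35.1% to 47.8%). Of the 9 that could be tested 6 were below the ratio of all PETs and 3 above, with a median log2 ratio of -0.10, and none was called.

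Lsm4 (chr8:73197147-73202651), a subunit of both LSm rings, had the most PETs of the class because of 1 pair. It had 90 PETs in Ronin KO and 188 in control. Of these, 74 in Ronin KO and 147 in control joined its anchor to the one on chr11 that covers Acbd4, Hexim1 and Plcd3. Without that pair Lsm4 had 16 PETs in Ronin KO and 41 in control. It had 17 partners in Ronin KO and 41 in control, and 3 of its PETs in Ronin KO and 4 in control were intrachromosomal.

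The 2 anchors of that pair hold 575 aligned bases at 97.2% identity. On one side these are chr11:102980468-102981039, in the exon that spans the whole annotated Hexim1 gene, and annotated there as untranslated. On the other side they are chr8:73204837-73205406, beyond the end of Lsm4 and in no annotated gene. Reads were kept only where they mapped uniquely, and the part of this likeness in the PET count was not tested. Leaving the pair out gave the core genes 723 PETs in Ronin KO and 2012 in control (35.9%).

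Lsm1, which marks the cytoplasmic ring, had 38 PETs in Ronin KO and 119 in control. Lsm2, like Lsm3 to Lsm7 a subunit of both rings, had 24 in Ronin KO and 66 in control. Lsm14a had 27 in Ronin KO and 71 in control. Lsm14a is a processing body protein that represses translation. Its relative Lsm14b had the lowest ratio of the class among genes with at least 20 PETs (log2 -0.58). It had 6 PETs with 6 partners in Ronin KO and 24 PETs with 24 partners in control. In each library 1 of these PETs was intrachromosomal. Lsm6 had 12 PETs in Ronin KO and 30 in control.

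Lsm12 is an LSm domain protein outside the rings. Its gene had the highest ratio of the class among genes with at least 20 PETs (log2 0.41). It had 19 PETs with 18 partners in Ronin KO and 35 PETs with 34 partners in control, with 0 intrachromosomal PETs in Ronin KO, a count that allows up to 3, and 6 in control. Lsm10, one of the promoters printed above, had 12 PETs in Ronin KO and 25 in control. Lsm3 had 3 in Ronin KO and 13 in control. The lowest counts belonged to genes that could not be tested. Lsm11 had 4 PETs in Ronin KO and 5 in control, Lsm7 had 2 in each and Lsm5 had 1 in Ronin KO and 2 in control.

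Prpf genes are named after yeast precursor RNA processing mutants and cover several steps. The 13 Prpf genes had 243 PETs in Ronin KO and 611 in control (39.8%, 95% interval 34.1% to 46.2%). Of the 12 that could be tested 7 were below the ratio of all PETs and 5 above, with a median log2 ratio of -0.06, and none was called.

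Prpf3, a protein of the U4 and U6 particle, had the most PETs of the class. It had 67 PETs with 57 partners in Ronin KO and 124 PETs with 114 partners in control, and 7 PETs in each were intrachromosomal. Its ratio of 54.0% (95% interval 39.5% to 73.3%) gave a log2 ratio of 0.38 and an adjusted p of 0.409 (exact binomial test over all genes). Prpf3 spans 2 anchors that also cover Rprd2 on one side and Mrps21 and other genes on the other.

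The highest ratio among Prpf genes with at least 20 PETs was that of Prpf6 (log2 0.73), which bridges U5 with U4 and U6. It had 15 PETs with 15 partners in Ronin KO and 22 PETs with 22 partners in control, and 2 in each were intrachromosomal. Prpf4, with the motif printed above, followed with 20 PETs in Ronin KO and 34 in control (log2 0.52). Prpf31 holds U4 and U6 to U5. It had 22 PETs in Ronin KO and 60 in control. Prpf8, the large U5 protein at the catalytic centre, had 9 PETs in Ronin KO and 19 in control.

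Among the genes that act with U1 or at activation, Prpf39 had 29 PETs in Ronin KO and 81 in control. Prpf38a, a protein of the complex formed before activation, had 22 in Ronin KO and 63 in control. Prpf38b had 14 in Ronin KO and 45 in control. All 3 were below the library ratio. The kinase gene Prpf4b had 7 PETs in Ronin KO and 23 in control. Prpf19, a ubiquitin ligase of the activated spliceosome, had 5 in Ronin KO and 13 in control. Prpf18, a factor of the second splicing step, had 4 in Ronin KO and 6 in control. Prpf40b, which could not be tested, had 1 PET in Ronin KO and 7 in control.

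How many PETs a core gene had went with how wide its anchors were. Across the 45 genes Spearman's rho between PETs and summed anchor width was 0.81 in Ronin KO and 0.82 in control, as a description over genes that share a library and its depth. Summed widths ran from 2.96 to 90.7 kb in Ronin KO, with a median of 22.8 kb, and from 1.71 to 101 kb in control, with a median of 22.7 kb. Another protein-coding gene lay at the same anchors for 29 core genes in Ronin KO and 30 in control. Split by whether a gene was alone at its anchors in control, the 15 that were alone had 234 PETs in Ronin KO and 605 in control (38.7%). The 30 that were not had 567 in Ronin KO and 1562 in control (36.3%).

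**Figure D4:**
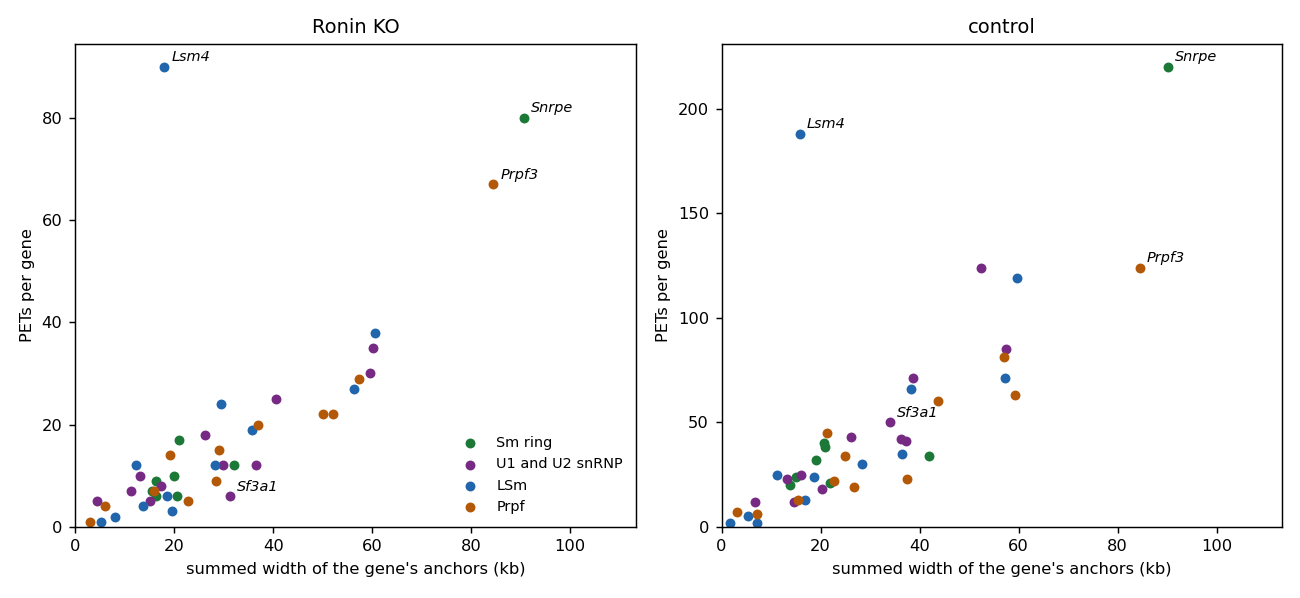
PETs per gene against the summed width of the gene's anchors in kb, for 44 of the 45 core genes in Ronin KO (left) and control (right), coloured by class. PETs go up with width in both libraries (Spearman's rho over all 45 genes 0.81 in Ronin KO and 0.82 in control), and Lsm4 lies far above the other genes of its width because of 1 pair of 74 PETs in Ronin KO and 147 in control.

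Most PETs of the core genes joined different chromosomes. The study described interchromosomal interactions as reported to be noisier and left them out of its later analyses. Nearly all rows here also rest on 1 PET, fewer than the study asked for in a high-confidence interaction. Most of the contacts counted here thus fall outside what the study took as high-confidence interactions. Intrachromosomal PETs made up 9.79% (95% interval 7.81% to 12.1%, Clopper-Pearson) of their PETs in Ronin KO and 9.12% (7.94% to 10.4%) in control, so the 2 shares overlap within counting error. For all PETs the shares were 18.6% in Ronin KO and 15.8% in control, and without pairs of over 100 PETs 17.1% in Ronin KO and 12.3% in control. The core genes had 78 intrachromosomal PETs in Ronin KO and 197 in control (39.6%, 95% interval 30.1% to 51.7%), and 719 interchromosomal PETs in Ronin KO and 1962 in control (36.6%). For all PETs the ratios were 49.2% within and 40.4% between chromosomes. Within a chromosome, 25 of 74 rows in Ronin KO (33.8%) and 59 of 187 in control (31.6%) spanned less than 1 Mb. Over all intrachromosomal rows the shares were 42.6% in Ronin KO and 36.7% in control. The median span was 17137 kb in Ronin KO and 20149 kb in control for the core genes. It was 4566 kb in Ronin KO and 10339 kb in control over all intrachromosomal rows.

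Few intrachromosomal rows held more than 1 PET. Distances run between the centres of the 2 anchors. In Ronin KO, Lsm1 was joined by 3 PETs to the anchor of Rnf170 and Thap1, another THAP family gene, 350 kb away. In control no PET joined these anchors, but 1 PET joined Lsm1 to the next anchor, which covers Hook3 and Rnf170 at 307 kb. In control, 5 PETs joined Lsm1 to the anchor of Ddhd2 and Whsc1l1, 61.7 kb from centre to centre. These 2 anchors nearly touch, ending at chr8:26887255 and starting at chr8:26887322, and Bag4 lies at both. That pair was absent in Ronin KO. Prpf3 was joined by 2 PETs to Anp32e, 131 kb away, in control alone. Snrpe had 2 PETs to a second anchor at Lax1 in both libraries, 52.4 kb from centre to centre in Ronin KO and 52.9 kb in control. These 2 anchors also lie side by side. In Ronin KO they end at chr1:135583107 and start at chr1:135583229, and in control they end at chr1:135582534 and start at chr1:135583798. In control alone, Snrpb had 2 PETs to Gm10800. No test was made of single pairs, since nearly all of them rest on 1 PET.

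Partners were rarely seen again. Of the 1959 control partners of the 41 core genes tested, 24 (1.23%) were also linked to the same gene in Ronin KO, although 90.3% of these partner peaks overlapped a peak of the Ronin KO library. Over all genes tested the values were 1.70% and 90.5%. The 24 belonged to 14 genes. The pairs of more than 1 PET in both were the Lsm4 pair, Prpf3 with Psmd12 (8 PETs in Ronin KO and 7 in control), Prpf3 with Atg16l1 (3 in Ronin KO and 2 in control), Snrpc with the chr11 peak (4 in Ronin KO and 2 in control) and Snrpe with Lax1. Besides the Lsm4 pair, the longest aligned stretch between the anchors was 422 bases at 81.3% identity for Prpf3 with Psmd12, 170 bases at 94.7% for Prpf3 with Atg16l1, 160 bases at 94.4% for Snrpc and 208 bases at 86.5% for Snrpe. Stretches of at least 100 aligned bases were found in 11 of the 12 rows of at least 2 PETs in Ronin KO and in 27 of 31 in control, and their part in the PETs was not tested. Rows of 1 PET were not aligned in this way. These shares therefore cannot show whether such likeness is particular to rows of more PETs. Rows whose 2 anchors share an identical stretch of at least 100 bases held 91 PETs of the core genes in Ronin KO and 179 in control, and without them the ratio was 35.7%.

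Rows between 2 different core genes were few, each with 1 PET. Ronin KO had 4, which joined Lsm10 with Prpf3, Prpf31 with Snrpe, Prpf4 with Snrpe, and Prpf3 with Sf3b4 at 312 kb on chr3. Control had 8, among them rows that joined Prpf3 with Prpf39, Prpf31 with Snrpf, Prpf38a with Sf3a2, Sf3a1 with Sf3b1, Sf3b2 with Snrpe, Sf3b3 with Snrpa, and Snrpb2 with Snrpe. No such pair was in both libraries. Rows within 1 gene were found at Snrpn in Ronin KO, and at Lsm12, Sf3a3 and Sf3b1 in control. Another 17 rows in Ronin KO and 21 in control ran to anchors of other spliceosome genes. Prpf39 with Sart1, a protein that recruits the U4, U5 and U6 particles, and Snrpe with Syf2, a protein of the activated spliceosome, were found in both.

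A promoter was within 1 kb of 76.5% of partner peaks in Ronin KO and 68.1% in control. These shares count each partner peak once. Over all ends of rows in the libraries, where a peak counts once per row, they were 74.5% in Ronin KO and 71.5% in control. Over all peaks, each counted once, they were 47.0% in Ronin KO and 35.4% in control. Partner peaks linked to at least 2 core genes numbered 42 of 654 in Ronin KO and 244 of 1637 in control. These counts depend on depth, with 703 rows of core genes in Ronin KO and 1972 in control. No share was taken at equal depth or over all genes, so no difference can be read from them. In Ronin KO the most shared were a peak of histone genes around Hist1h1a and one around Crabp2 and Hdgf, with 4 core genes each. In control the peak at Gm10800 was linked to 13 core genes and a peak of histone genes around Hist1h2ai to 8. The Gm10800 peak had the most partners of any peak in both libraries (767 in Ronin KO and 1776 in control), so its links are not particular to core genes. By number of partners the Hist1h1a peak ranked 2 in Ronin KO (253 partners) and the Hist1h2ai peak 4 in control (521 partners). The links of these histone peaks are likewise not particular to core genes. The peak around Crabp2 and Hdgf had 25 partners in Ronin KO.

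Of the core genes with the loosened form of the motif, Lsm10 and Prpf4 were above the library ratio and Sf3b2 below it. Together they had 44 PETs in Ronin KO and 100 in control, a median log2 ratio of 0.26 over 3 genes. The 38 core genes tested without it had a median of -0.18. Over all genes tested the medians were -0.02 for the 344 with it within 1 kb of a start site and -0.13 for the 8623 without. With 3 genes no difference can be read from these medians.

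Other genes of splicing gave much the same picture. Of 65 other spliceosome genes, all had PETs and 62 could be tested, with a median log2 ratio of -0.18. Below the ratio of all PETs were 43, and 19 were above, beside 61.8% of all genes tested that were below. Called lower were 2 of the 62, beside 3.63% of all genes tested. Rbm25, a splicing regulator, had 36 PETs in Ronin KO and 158 in control (adjusted p = 0.0144, exact binomial test over all genes). Cwc22, which loads the exon junction complex, had 2 PETs in Ronin KO and 36 in control (adjusted p = 0.0114, exact binomial test). None was called higher, beside 2.85% of all genes tested. Besides Rbm25, the most PETs belonged to Luc7l2, a U1-associated protein, with 45 in Ronin KO and 138 in control.

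Sm rings are assembled in the cytoplasm by the SMN complex. Of 17 genes for this assembly, 16 were matched by symbol and 15 could be tested, with a median log2 ratio of -0.05. Of these 15, 9 were below the ratio of all PETs and 6 above, beside 61.8% of all genes tested that were below. Gemin5, the subunit that recognises small nuclear RNAs, was the one called, and it was higher, as were 2.85% of all genes tested. It had 31 PETs in Ronin KO and 21 in control (log2 1.80, adjusted p = 0.000402, exact binomial test over all genes). The most PETs in this list belonged to Wdr77, a methylosome subunit, with 45 in Ronin KO and 93 in control, followed at equal sums by Mepce with 16 in Ronin KO and 41 in control and Coil, the Cajal body scaffold, with 9 in Ronin KO and 48 in control. Gemin5 was thus the only gene of either list called with more contacts in Ronin KO.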

How the data were processed

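Contacts bound by RNA Pol II were measured by ChIA-PET in 1 merged library of Ronin KO and 1 of control mouse embryonic stem cells. The authors trimmed linkers with cutadapt, mapped the mates uniquely to mm9 with Bowtie 1.1.1, collapsed duplicate PETs and called peaks with MACS 1.4.2. They removed intrachromosomal PETs under 4 kb and merged 2 experiments per group. The deposited values are whole counts of PETs per pair of peaks, counts of PETs per peak (not used), the distance between peaks as a signed score in bp, and a p-value with its adjusted value per pair from the authors' hypergeometric test.

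Genes were taken from GENCODE vM1 and given the rows with an anchor within 1 kb. Ratios carry exact conditional binomial 95% intervals. Genes with at least 10 PETs over both libraries were tested by an exact binomial test, two-sided, with Benjamini-Hochberg adjustment, in Python 3.11.15 with SciPy 1.17.1. The fit was tested on simulated data. Log2 ratios use a pseudocount of 1, which understates changes of low counts and moves them toward equal PETs in both libraries. Anchors were compared with blastn 2.17.0 on NCBIM37 (mm9), and the motif was derived from the top sequence of the study's motif table, with its 2 middle bases left free.

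The core genes, the lists (other spliceosome genes, small nuclear RNP assembly, embryonic stem cell, fibroblast and primitive endoderm markers), the tests and the rule for named genes were chosen with earlier results of these data known. By that rule the core genes are named, and partners are given for the genes with the most PETs and the lowest and highest ratio of each class. Some results that the rule names are not reported here, and 1 core gene counted in all sums is not drawn. Alternatives covered the window, the class of rows, minimum PETs, adjusted p-values, totals, pseudocount and likeness of anchors.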

Additional observations from a re-analysis of the deposited data

How the results depend on the processing

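Of 64 recomputed values over 6 results, 44 stayed near the reported value, among them all 8 values for partner peaks. Near means within its counting interval or, for counts of genes, within 1.5 times of it. For the median log2 ratio it means within 0.119, a width taken from the interval of the summed PETs. Among the 44 are values that leave out core genes sharing an anchor with another core gene. No core gene does so, and those values could not change. Rows with an adjusted p-value under 0.05 gave the core genes 40.1% of control PETs. Rows of at least 2 PETs, which leave 4 core genes to test, gave 48.6% and an intrachromosomal share of 6.60% in Ronin KO. Of the 4 genes, 3 had fewer PETs in Ronin KO, beside 673 of 816 genes in all. Their median log2 ratio was -0.89, beside -0.66 for all genes. Called were 2 of the 4 (Lsm4 and Snrpe, both lower), beside 315 of 816 genes in all. Intrachromosomal rows, which leave 6 core genes, gave 5 genes with fewer PETs, beside 1589 of 1747 genes in all. They gave 0 called, beside 52 of 1747. Interchromosomal rows gave 0 called, beside 481 of 8602 genes in all. Anchors near start sites gave 3 called of 40, beside 528 of 7345 genes in all.

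The total used for scaling decided most of the rest. Scaled to the PETs of both libraries, 24 core genes were lower by the log2 ratio with its pseudocount, beside 5171 of 8973 genes in all. With pairs of over 100 PETs left out of the totals, 18 were lower, the median was 0.024 and 0 were called. Over the 8973 genes 4080 were then lower, the median was 0.074 and 474 were called. With the number of pairs as totals, 14 were lower, the median was 0.10 and 0 were called (Sf3a1 adjusted p = 0.114, exact binomial test). Over the 8973 genes 3530 were then lower, the median was 0.15 and 520 were called. With the study's PETs over 5 kb as totals, the median was -1.10 and 25 were called, beside 4457 of 8973 genes in all, and with an even share as null 29 were called, beside 5737 genes. The totals without pairs of over 100 PETs or by number of pairs, and the removal of the Lsm4 pair, were chosen after seeing the data. No paired analysis was possible because each group is 1 merged library. Depth limits the single gene: at a median of 12 PETs in Ronin KO and 34 in control, moderate differences cannot be told from counting error.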
